A study of Mus musculus with 2 samples.

Results

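Serpins are a large family of proteins of one fold, most of which inhibit serine proteases. The genes described here are the mouse serpin genes measured on the arrays, taken as every gene with a Serpin symbol of clades A to I in the platform annotation, with the collagen chaperone gene *Serpinh1* left out. This gave 39 genes with 54 probe sets, of 18194 named genes on the arrays. They comprise 14 genes of clade A, 18 of clade B, 1 each of clades C, D and G and 2 each of clades F and I. Of 68 serpin symbols in the RefSeq gene table, the other 29 had no value of their own here and stand outside the counts.

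The study compared gene expression between mouse embryonic stem cells (ESCs) with and without the H3K9 methyltransferase G9a. There was 1 array of WT ESCs (TT2, a line from an F1 embryo of C57BL/6 and CBA parents) and 1 array of G9a-KO ESCs, which the labels give as a TT2 line that lost exons of the G9a gene through conditional targeting. Each group is 1 line, and nothing in the sources names separate cultures. The labels give both samples the same treatment text, with 800 nM 4-hydroxytamoxifen for 48 h and 48 h without it, without saying whether it was given to WT cells. The methods of the study give the G9a-KO cells as G9a-/- with no mention of the drug for them, grown over inactivated embryonic fibroblasts in medium with serum and LIF, where the labels give serum replacement with little serum, so how the gene was lost in these cells is not settled. Each level below is a log2 value relative to the 75th percentile of its array, and each difference is the G9a-KO level less the WT level, in log2 units. Each group has 1 array, so differences could not be set against a replicate spread and were not tested, and every one compares these cultures only. Control RNA spiked into both samples differed with an SD of 0.11 over 18 probe sets. *Ehmt2*, the gene of G9a, stood at 2.05 in WT and 0.51 in G9a-KO, which is 2.90-fold lower, and whether its probes lie in the deleted exons was not analysed here.

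A serpin works as a bait. The target protease cuts an exposed loop of the inhibitor, the loop folds into the body of the serpin, and the protease stays bound and inactive. Clade A and most of the small clades are secreted proteins of plasma, made in good part by liver, that restrain the proteases of clotting, fibrinolysis, complement and inflammation. Clade B serpins lack a classical signal peptide and act largely inside cells, where they protect against proteases that leak from lysosomes or granules. Some members, such as the hormone carriers *Serpina6* and *Serpina7*, *Serpinb5* (maspin) and *Serpinf1* (pigment epithelium-derived factor), are not protease inhibitors in the usual sense.

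Most serpin genes gave a dim signal in these ESCs. Of the 39 genes, 26 were on both arrays dimmer than the median probe set (-2.24 in WT and -2.13 in G9a-KO), 9 were brighter on both, 2 only in G9a-KO (*Serpinb6c* and *Serpinb1a*) and 2 only in WT (*Serpina10* and *Serpind1*, both within 0.1 of it). The levels of the 26 dim genes ran from -5.26 to -2.34 in WT and from -5.05 to -2.24 in G9a-KO. Signals this low lie near the background, so their folds are not exact. The brightest probe sets of *Serpinb2*, *Serpinb11* and *Serpina4-ps1*, 3 of these genes, held identical deposited values on both arrays, which the shift sets 0.056 apart.

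**Figure D1:**
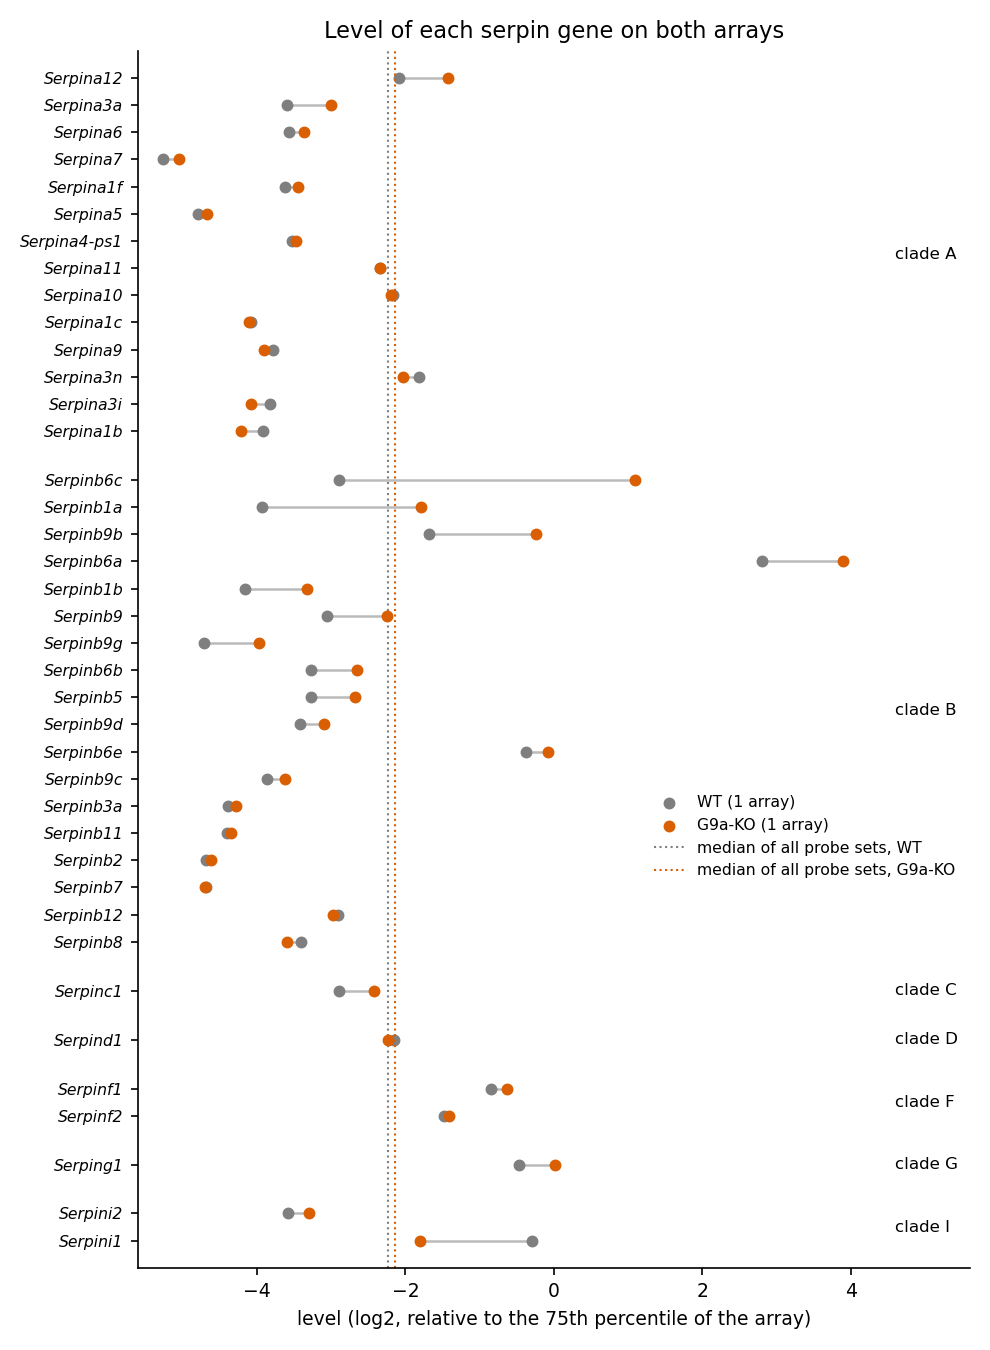
Level of each of the 39 serpin genes (horizontal axis, log2 units from the 75th percentile) in WT (grey) and in G9a-KO (orange), each from 1 array, by clade and by the size of the difference, with dotted lines at the median of all probe sets of each array. *Serpinb6c* runs from -2.90 to 1.09 and *Serpini1* from -0.30 to -1.80, while most genes stay to the left of the dotted lines on both arrays.

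Where serpin genes differed, nearly all were higher in G9a-KO. At 1.3-fold, the threshold the study used for this pair, 13 of the 39 genes (33.3%) were higher, against 17.4% of all 18194 genes, and 1 was lower, against 17.2%. At 2-fold, 4 were higher and 1 was lower, against 4.61% and 3.76% of all genes. The median difference of the family was 0.21 and that of all genes 0.04. The 4 genes over 2-fold higher, *Serpinb6c*, *Serpinb1a*, *Serpinb9b* and *Serpinb6a*, belong to clade B, and the lower gene was *Serpini1*. Among genes brighter than the median on at least 1 array, 6 of 13 serpin genes were higher and 1 lower at 1.3-fold. The shares among all 12600 such genes were 21% and 22.8%. At 2-fold, 4 and 1 passed, against 6.25% and 5.29%. Of these 13, *Serpinb6c* and *Serpinb1a* were brighter only in G9a-KO, so their difference let them in, and *Serpina10* and *Serpind1* only in WT. Among genes dimmer than the median on both arrays, 7 of 26 serpin genes were higher and 0 lower at 1.3-fold. The shares among all 5594 such genes were 9.3% and 4.5%. None of the 26 passed 2-fold, against 0.912% and 0.34%. Under 4 other ways of scaling the arrays the count of higher genes was 12 or 13. *Serpinc1* lay within 1.3-fold under median centring and quantile normalization.

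**Figure D2:**
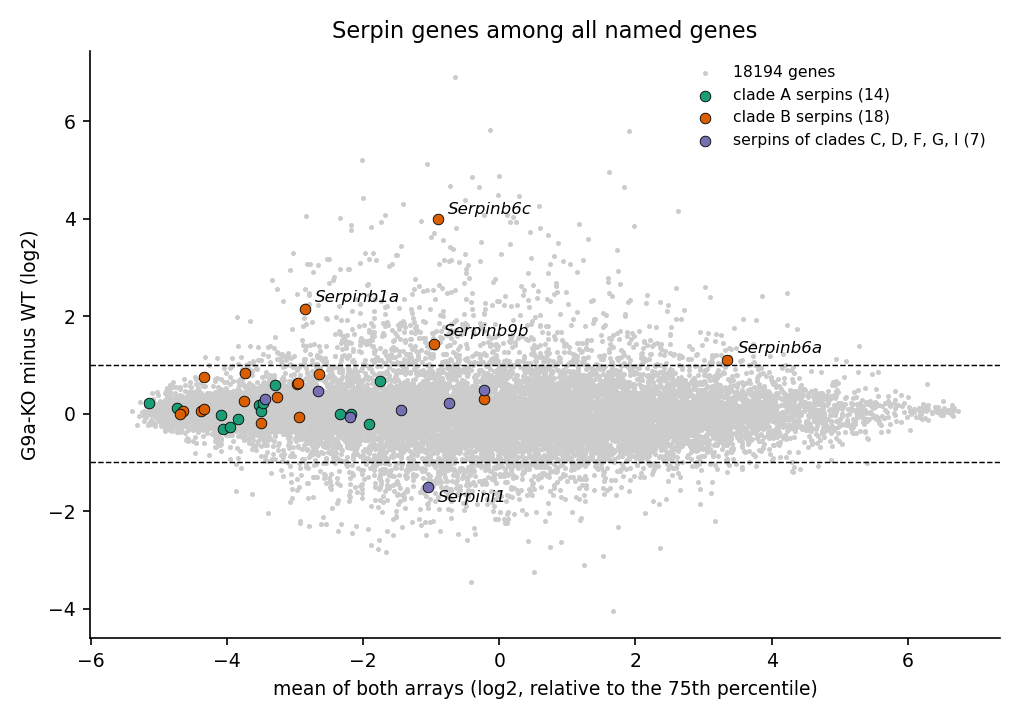
Vertical axis, log2 difference of G9a-KO from WT, and horizontal axis, mean level of both arrays (log2 units from the 75th percentile), for 18194 genes in grey, 1 point per gene, with the serpin genes in colour by clade and dashed lines at 2-fold. Of the 39 serpin genes, 4 lie above the upper line, all in clade B, and *Serpini1* lies below the lower one.

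Clade B held most of the difference. Of its 18 genes, 9 (50%) were over 1.3-fold higher and 0 were lower, against 17.4% and 17.2% of all genes, with a median of 0.47, and the other 21 serpin genes had a median of 0.07, with 4 higher and 1 lower. The mouse clade B genes stand in 2 clusters, one on chromosome 13 and one on chromosome 1. All 11 measured genes of the chromosome 13 cluster had a positive difference, 8 of them over 1.3-fold, with a median of 0.80 (1.75-fold). A positive difference was held by 9707 of all 18194 genes, and by 3348 of the 5594 below the median on both arrays. Both counts take in genes with identical deposited values on the 2 arrays, which the shift alone makes positive. Related genes can share signal, so the 11 signs need not be separate readings. The 7 measured genes of the chromosome 1 cluster had a median of 0.06, with 1 over 1.3-fold higher. For clade B and both of its clusters, the counts past 1.3-fold were the same under each of the 5 scalings compared. So were the 11 positive signs on chromosome 13. No shift and median centring move every difference by a constant smaller than the lowest of the 11 (0.25), so under them the signs could not change. The median on chromosome 1 went from 0.06 to between -0.05 and 0. On chromosome 13, 6 of the 11 genes lay below the median on both arrays, and on chromosome 1 all 7 did, so the clusters differ in brightness too. The 6 dim genes of chromosome 13 had a median of 0.69, with 4 over 1.3-fold higher. The 7 dim genes of chromosome 1 had a median of 0.06, with 1 higher. Among all 5594 genes below the median on both arrays, 9.3% were over 1.3-fold higher and the median was 0.06, which the chromosome 1 genes were close to.

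*Serpinb6c* had the highest difference of the family. It encodes a mouse relative of *Serpinb6a*. Its level was -2.90 in WT, below the median of the array, and 1.09 in G9a-KO, above the 75th percentile. The difference of 3.99 (15.8-fold higher) was the 26th highest of the 18194 genes. Genes of similar mean level had a robust SD of 0.56. Its single probe set is of the _s_at kind, which can bind several transcripts, and the Serpinb6 genes resemble each other in sequence, so the signal cannot be assigned to *Serpinb6c* with certainty.

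*Serpinb6a*, the counterpart of the widely expressed human inhibitor of cathepsin G and trypsin-like proteases, was bright on both arrays. It stood at 2.80 in WT and at 3.90 in G9a-KO, a difference of 1.10 (2.14-fold higher). It was the one serpin gene above the 75th percentile on both arrays, so its fold owes least to the background. Under median centring its difference was 0.996, just under 2-fold.

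The other Serpinb6 genes differed less. *Serpinb6e* went from -0.38 to -0.07, a difference of 0.31 that did not reach 1.3-fold, by a probe set of the kind that can bind related sequences. *Serpinb6b* went from -3.27 to -2.64, below the median on both arrays, and was 1.54-fold higher.

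*Serpinb1a* encodes an inhibitor of neutrophil elastase, cathepsin G and proteinase 3. It lay at -3.93 in WT and at -1.79 in G9a-KO, a difference of 2.14 (4.42-fold higher, the 181st highest). Its second probe set was dimmer, at -5.18 and -4.93, and differed by 0.24. The mean of both probe sets gave 1.19. The relative *Serpinb1b*, dim on both arrays, went from -4.16 to -3.32 and was 1.79-fold higher.

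The Serpinb9 genes descend from one ancestor, and *Serpinb9* itself protects cells against granzyme B. *Serpinb9b* was above the median on both arrays and went from -1.68 to -0.24, a difference of 1.44 (2.70-fold higher). *Serpinb9* went from -3.05 to -2.24 and was 1.75-fold higher by its brighter probe set, while the dimmer one held the same deposited value on both arrays. *Serpinb9g* (1.68-fold higher) was dim on both arrays, as were *Serpinb9c* (0.25) and *Serpinb9d* (0.33), which did not reach the threshold. A probe set shared by *Serpinb9e*, *Serpinb9f*, *Serpinb9g* and *Serpinb9h*, which names no single gene and stands outside the counts, went from -2.97 to -2.09, a difference of 0.88.

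In gene order, the chromosome 13 cluster runs from *Serpinb1a* to *Serpinb6a* and holds 16 protein-coding serpin genes, of which 11 were measured. Of the 4 genes over 2-fold higher, *Serpinb1a* lies at one end of the cluster, *Serpinb6c* and *Serpinb6a* are neighbours at the other end, and *Serpinb9b* lies between. Of the 5 coding genes on either side, 9 were measured, and 5 of these were over 1.3-fold higher and 0 lower, against 17.4% and 17.2% of all genes, with a median of 0.39. *Nqo2* (0.39), the gene next to *Serpinb6a*, the tubulin genes *Tubb2a* (1.25) and *Tubb2b* (0.93) farther out on that side, and *Gmds* (0.72) were higher. *Wrnip1* (-0.02), the gene next to *Serpinb1a*, and *Bphl* (-0.22) were not. Beside the chromosome 1 cluster, 3 of 10 neighbours were over 1.3-fold higher, with a median of 0.04.

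**Figure D3:**
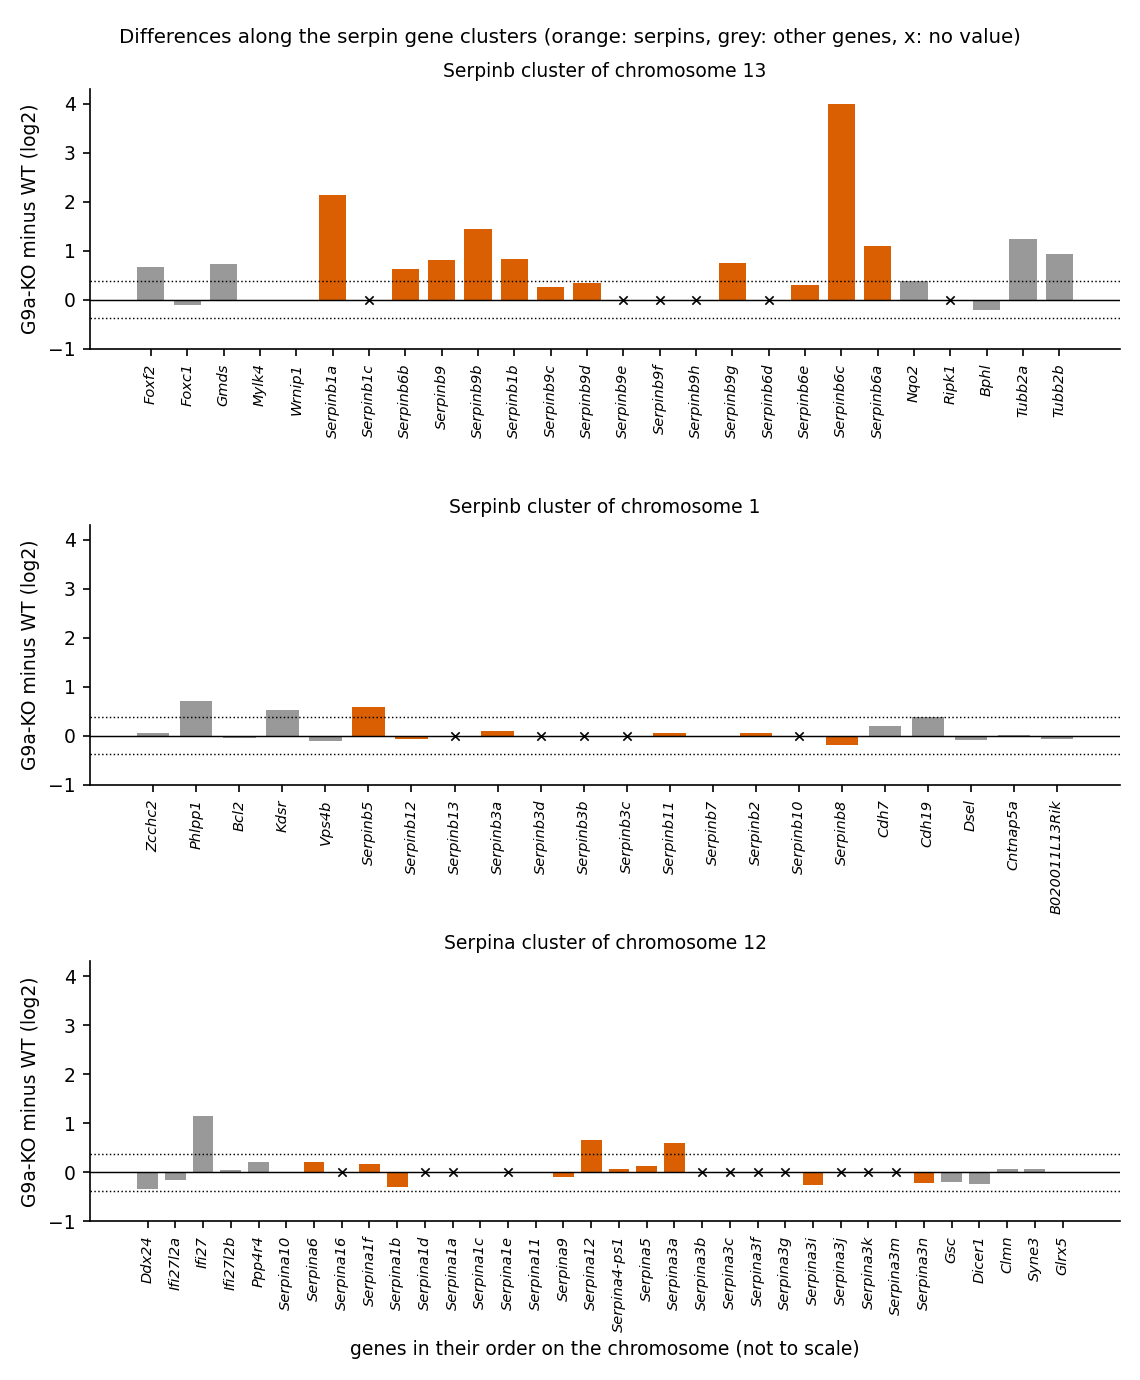
Log2 difference of G9a-KO from WT (vertical axis) for the genes of 3 serpin clusters and the 5 coding genes on either side, in chromosome order and not to scale, with serpin genes in orange, other genes in grey, crosses for genes without a value and dotted lines at 1.3-fold. On chromosome 13 all 11 measured serpin genes lie above 0, from 0.25 to 3.99, while on chromosomes 1 and 12 most lie within the dotted lines.

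The sequences before the gene starts are shown for the 3 chromosome 13 genes that were over 2-fold higher and have a promoter in the RefSeq table, and for *Serpini1*, the gene that was lower. Each is the 250 bases before the RefSeq start that lies farthest upstream (build GRCm38.p6), written 5′ to 3′ on the strand of the gene, with CG dinucleotides in capitals, since CG sites are where DNA is methylated. *Serpinb6a* (chr13:34002795-34003044, minus strand) has 20 of them, *Serpinb6c* (chr13:33905192-33905441, minus strand) 8, *Serpinb9b* (chr13:33027164-33027413, plus strand) 2 and *Serpini1* (chr3:75557243-75557492, plus strand) 13.
Serpinb6a: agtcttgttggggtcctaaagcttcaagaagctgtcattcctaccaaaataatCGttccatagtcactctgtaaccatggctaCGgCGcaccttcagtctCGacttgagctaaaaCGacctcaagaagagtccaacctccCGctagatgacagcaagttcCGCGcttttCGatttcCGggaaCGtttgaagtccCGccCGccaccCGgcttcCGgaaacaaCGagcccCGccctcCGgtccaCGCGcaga
Serpinb6c: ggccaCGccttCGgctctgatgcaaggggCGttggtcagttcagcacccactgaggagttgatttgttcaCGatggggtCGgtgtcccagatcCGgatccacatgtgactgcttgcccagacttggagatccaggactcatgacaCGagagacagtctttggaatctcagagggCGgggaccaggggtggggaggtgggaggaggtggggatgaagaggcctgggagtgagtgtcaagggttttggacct
Serpinb9b: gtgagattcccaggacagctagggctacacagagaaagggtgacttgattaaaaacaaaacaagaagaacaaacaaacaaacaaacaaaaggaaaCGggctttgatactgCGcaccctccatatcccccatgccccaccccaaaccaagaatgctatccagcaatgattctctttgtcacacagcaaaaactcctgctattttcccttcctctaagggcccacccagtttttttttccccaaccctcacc
Serpini1: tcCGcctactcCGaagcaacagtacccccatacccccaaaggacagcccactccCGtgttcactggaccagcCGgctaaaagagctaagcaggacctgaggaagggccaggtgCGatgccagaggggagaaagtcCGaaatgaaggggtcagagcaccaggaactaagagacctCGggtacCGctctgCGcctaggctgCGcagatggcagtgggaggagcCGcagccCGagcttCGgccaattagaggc

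Of the 39 serpin genes, 33 had a promoter in the table. Their median was 3 CG dinucleotides in 250 bases, against 6 for the 27025 genes of the table, and 10 or more were present in 2 of the 33 (*Serpinb6a* and *Serpini1*), against 38.2% of all. The 10 such genes of chromosome 13 had from 0 to 20, with a median of 3, and the 7 of chromosome 1 had from 0 to 6, with a median of 1. *Serpinb6a* and *Serpini1*, the members with the most CG sites, had differences of 1.10 and -1.51. DNA methylation was not measured on these arrays, and a link of CG sites to the differences was not tested. The E-box CACGTG, the motif the study links to MAX, was in 0 of the 33 windows on either strand, against 6.04% of all. The letters AGATAA, a core of GATA factor sites, were in 7 of 33, against 10.2% of all, and in 0 of the 10 on chromosome 13. The letters TATAAA were in 7 of 33, against 12.98% of all, and in 4 of the 7 on chromosome 1. These are matches of letters in a short window and do not show binding.

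On chromosome 1, *Serpinb5* (maspin, studied as a tumour suppressor of epithelium) was the gene past 1.3-fold. All 4 of its probe sets lay below the median on both arrays and were higher in G9a-KO, by 0.50, 0.60, 1.02 and 1.02. The brightest of them went from -3.28 to -2.68. *Serpinb2* (plasminogen activator inhibitor type 2), *Serpinb3a*, *Serpinb7*, *Serpinb8*, *Serpinb11* and *Serpinb12*, genes known mostly from epithelia and blood cells, differed by between -0.19 (*Serpinb8*) and 0.10 (*Serpinb3a*).

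Clade A, which holds the genes of α1-antitrypsin and antichymotrypsin, showed no common direction. Of 14 genes, 2 were over 1.3-fold higher, a share near the 17.4% of all genes, and 0 lower, against 17.2%. In it 7 differences were positive and 7 negative, with *Serpina4-ps1*, whose deposited values were identical, positive through the shift alone. Under each of the 4 other scalings 6 were positive, and the median of 0.03 turned negative, down to -0.07. *Serpina12* (vaspin) went from -2.08 to -1.42, above the median on both arrays, and was 1.59-fold higher, with a second, dim probe set that differed by 0.13. *Serpina3a* went from -3.59 to -3.00, below the median, and was 1.51-fold higher. *Serpina3n*, the antichymotrypsin-like gene that responds to acute inflammation, went from -1.81 to -2.03, a difference of -0.21. *Serpina10*, the protein Z-dependent inhibitor of factor Xa, stood at -2.17 and -2.19.

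The other 10 genes of clade A lay below the median on both arrays and within 1.3-fold. They include *Serpina6* and *Serpina7*, which carry corticosteroids and thyroid hormone in blood, *Serpina5* (protein C inhibitor), and the α1-antitrypsin genes *Serpina1b* and *Serpina1c*, which share most of their sequence. *Serpina1b* had the lowest difference of the clade (-0.31), and its second probe set differed by -0.02. It passed 1.3-fold lower under median centring (-0.41), quantile normalization (-0.38) and lowess correction (-0.38). A probe set shared by *Serpina1b*, *Serpina1c* and *Serpina1e*, outside the counts, went the other way, from -3.90 to -3.60 (0.30). One shared by *Serpina1a* and *Serpina1d* differed by 0.19, so the direction of *Serpina1b* is not settled.

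Among the secreted inhibitors of clades C, D, F and G, *Serping1*, which encodes the C1 inhibitor of complement and the contact system, was above the median on both arrays. It went from -0.46 to 0.02 and was 1.40-fold higher. *Serpinc1* (antithrombin) was dim, went from -2.90 to -2.43 and was 1.39-fold higher. *Serpinf1* went from -0.85 to -0.64, a difference of 0.21, and its second probe set held the same deposited value on both arrays. *Serpinf2* (α2-antiplasmin) stood at -1.48 and -1.41 and *Serpind1* (heparin cofactor II) at -2.16 and -2.23. The robust SD of genes at the level of *Serping1* was 0.51, which is larger than its difference.

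*Serpini1* was the one serpin gene over 1.3-fold lower in G9a-KO. It encodes neuroserpin, an inhibitor of tissue-type plasminogen activator made mainly by neurons. Its brightest probe set went from -0.30 to -1.80, a difference of -1.51 (2.84-fold lower, the 214th lowest of all genes). A second probe set went from -1.41 to -3.36, a difference of -1.95 (3.86-fold lower), and the third lay near the background at -5.07 and -5.02. The gene *Pdcd10*, which lies next to *Serpini1* in gene order, stood at 4.17 and 4.03. Of the 6 measured neighbours of the Serpini genes, 0 passed 1.3-fold, against 17.4% higher and 17.2% lower of all genes. Among these neighbours *Bche*, *Zbbx* and *Fstl5* were below the median on both arrays, and 6 genes are few for such a share. *Serpini2* was dim and differed by 0.29.

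Of the 11 serpin genes with several probe sets, 6 had all of them in the same direction in the deposited values, with no identical pair. The other 28 genes rest on 1 probe set each.

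The proteases that serpins inhibit were listed from general knowledge. Of 13 proteases of the plasminogen and clotting systems, 2 (15.4%) were over 1.3-fold higher, near the 17.4% of all genes, and 0 lower, with a median of 0.16. Prothrombin (*F2*), whose product is the target of antithrombin and heparin cofactor II, went from -0.97 to 0.28 (2.37-fold higher), and *Habp2* from -1.92 to -1.40 (1.44-fold). *Plat*, the tissue-type plasminogen activator that neuroserpin blocks, stood at -1.59 and -1.43 (0.16), and *Plg* (plasminogen) at -2.32 and -2.05.

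Of 32 other target proteases measured, 11 (34.4%) were over 1.3-fold higher and 3 (9.38%) lower, against 17.4% and 17.2% of all genes, with a median of 0.19. The secreted serine protease *Htra1* went from 0.28 to 3.22 (7.65-fold higher). The lysosomal cathepsins *Ctsh* (4.14-fold), *Ctsb* (3.09-fold) and *Ctsl* (2.61-fold) were higher as well, with *Ctsl* at 4.59 and 5.97, whereas the dim cathepsin gene *Ctsk* differed by 0.21. The lower genes were *Klk8* (-0.73) and, both dim, *C1s1* (-0.72) and *Ctss* (-0.64). Granule proteases of leukocytes, among them the best-known targets of clade B members, were mostly dim. *Elane* (neutrophil elastase) differed by 0.23, *Ctsg* (cathepsin G) by 0.14, *Prtn3* (proteinase 3) by 0.02, *Gzmb* (granzyme B) by 0.34 and *Gzma* (granzyme A) by -0.11, while the mast cell chymase *Cma1* was 1.31-fold higher, and of these *Prtn3* was the one above the median.

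Serpin and protease complexes are taken up by receptors of the LDL receptor family. Of 15 measured receptors and cofactors, 7 (46.7%) were over 1.3-fold higher and 3 (20%) lower, against 17.4% and 17.2% of all genes. The median of 0.32 depended on the choice of probe sets and reached 0.88 with the most different one of each gene. The endocytic receptors *Lrp2* (megalin), from -2.80 to 0.90, and *Vldlr*, from -0.41 to 1.90, were 12.96-fold and 4.95-fold higher. Tissue factor (*F3*), the starter of clotting, was 5.82-fold higher and the urokinase receptor *Plaur* 2.59-fold, while *Lrp1*, the receptor best known for clearing such complexes, stood at -0.81 and -0.98. The lower genes were *Sort1* (-1.31), *Sdc2* (-0.81) and *Procr* (-0.76), and other probe sets above the median gave 0.09 and 0.12 for *Sort1* and -1.07 and 0.14 for *Sdc2*.

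Among 27 protease inhibitors of other families, 13 (48.1%) were over 1.3-fold higher, 14 lay within 1.3-fold and 0 were lower, against 17.4% and 17.2% of all genes, with a median of 0.34. *Spink1*, a trypsin inhibitor, went from -2.37 to 1.01 (10.4-fold higher), *Tfpi*, which blocks tissue factor, from 3.50 to 5.23 (3.31-fold), *Timp3* from -2.06 to -0.41 (3.14-fold) and *A2m* from -0.27 to 1.27 (2.90-fold). *Serpinh1*, outside the family as counted here, went from 0.24 to 2.95.

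**Figure D4:**
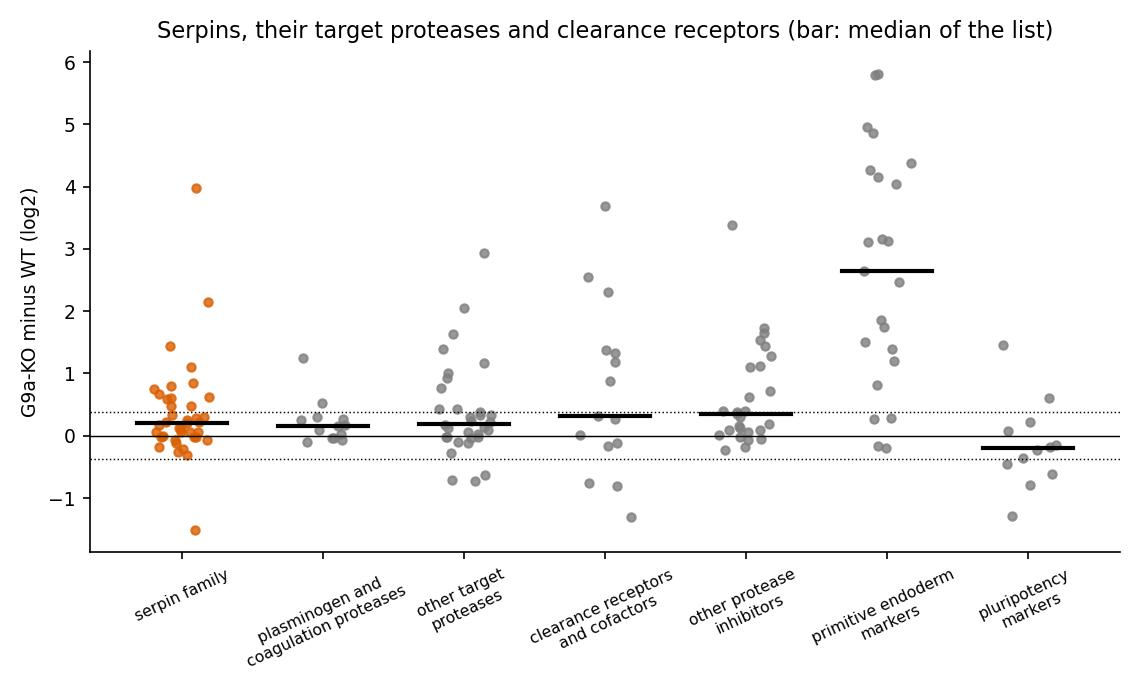
Log2 difference of G9a-KO from WT (vertical axis) for the 39 serpin genes (orange) and for 6 lists of other genes (grey), 1 point per gene, with a black bar at the median of each list and dotted lines at 1.3-fold. The serpin median is 0.21 and those of the protease, receptor and inhibitor lists, by the brightest probe set of each gene, lie between 0.16 and 0.34, while the primitive endoderm markers have a median of 2.64.

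Markers of the ESC state and of other lineages were read on the same arrays, where 17.4% of all genes were over 1.3-fold higher and 17.2% lower. All 12 pluripotency markers lay above the median on both arrays, with a list median of -0.20, 2 (16.7%) higher and 4 (33.3%) lower. Their largest differences were *Tcl1* (1.46), *Lin28a* (-1.29), *Zfp42* (-0.79) and *Dppa5a* (0.61), and *Pou5f1* stood at 4.91 and 4.45. Of 23 primitive endoderm markers, 19 (82.6%) were higher in G9a-KO and 0 lower, with a median of 2.64. Their levels ran from -3.27 to 2.98 in WT and from -2.33 to 5.46 in G9a-KO, led by *Cubn* (5.82), *Srgn* (5.79), *Col4a1* (4.95) and *Col4a2* (4.87). Of 14 trophoblast markers, 9 (64.3%) were higher and 1 lower (median 0.77, levels from -4.47 to 2.83 in WT and from -4.53 to 2.99 in G9a-KO). *Krt19* (2.79), *Plac1* (1.502), *Elf5* (1.39) and *Krt18* (1.17) led them, and *Cdx2* was below the median on both arrays and differed by -0.08. Of 16 fibroblast markers, 6 (37.5%) were higher and 0 lower (median 0.26, levels from -4.61 to 3.88 and from -4.55 to 3.84). *Col5a2* (3.06), *Fn1* (1.61), *Col6a3* (1.37) and *Col1a2* (0.83) led them, and *Col1a1* and *Col3a1* were below the median on both arrays. Of 12 hepatocyte markers, 6 (50%) were higher and 0 lower (median 0.37, levels from -4.77 to -1.39 and from -4.77 to -0.57), led by *Fgb* (2.35), *Ttr* (0.82), *Hp* (0.57) and *Tat* (0.44), with *Alb* below the median on both arrays. Of 8 macrophage markers, 3 (37.5%) were higher and 0 lower (median 0.28, levels from -4.05 to -1.49 and from -3.80 to -0.98). Above the median these were *Cd68* (0.51) and *Csf1r* (0.40), with *Fcgr1* at 0.14 and *Cd14* at -0.01. The other higher one, *Ptprc*, had the largest difference of the list (1.34), from -3.98 to -2.64. *Ptprc* and *Adgre1* (0.31) were below the median on both arrays. The lists share members, as *Ttr* counted for both hepatocyte and primitive endoderm, and *Thbd* for both primitive endoderm and the receptors and cofactors. The part of these lineages in the serpin values was not tested, and in bulk RNA more cells of a type and more RNA per cell cannot be told apart.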

How the data were processed

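Total RNA (200 ng) of 1 WT and 1 G9a-KO sample was hybridized to an Affymetrix Mouse Genome array. The authors deposited log2 values from RMA, and R 3.2.1 is named in the submitters' processing notes. RMA brings the single probe signals of the arrays to one distribution before it summarizes them per probe set, so a difference in total RNA cannot be seen. The deposited probe set values still had 75th percentiles of 7.37 in WT and 7.31 in G9a-KO. As in the methods of the study, each array was shifted so that the 75th percentile of its 45101 probe sets became 0. Differences past 1.3-fold, its threshold for this pair, and past 2-fold were counted with 1 probe set per gene. The study instead called a gene when at least 1 of its probes passed. Probe sets with 1 symbol in GEO's platform annotation (34958) were used, all 39 serpin genes matched RefSeq (GRCm38.p6) by gene ID, and the brightest probe set over both arrays stood for a gene. The gene lists, and serpin genes as a subject, were chosen with earlier results of these data known, and motifs, neighbours and clusters after the values were seen. All serpin genes were counted. Those brighter than the array median on either array, or past 1.3-fold, were named with values, as were up to 4 genes per other list with the largest absolute difference among those above the median whose other bright probe sets ran the same way. Any further gene was picked with its values in view. The number of arrays (1 per group) limits the precision and allowed no p-value. The robust SD covers differences of all genes in 20 bins of mean level and holds real and technical spread together. Python 3.11.15, pandas 2.3.3 and statsmodels 0.14.6 were used, and the steps were tested on simulated data. Alternatives were no shift, median centring, quantile normalization, lowess correction (span 0.3), other probe set filters and other values per gene.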

Additional observations from a re-analysis of the deposited data

How the results depend on the processing

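The count of serpin genes over 1.3-fold lower was 2 rather than 1 under median centring, quantile normalization and lowess correction. There *Serpina1b*, dim on both arrays, joined *Serpini1* by its brightest probe set. With probe sets above the median on at least 1 array only, 13 genes were left, of which 6 were over 1.3-fold higher. The median of clade B (5 genes) was then 1.44. Of these 5, *Serpinb6c* and *Serpinb1a* passed the filter only through G9a-KO, where they were higher, so the filter itself favours a higher median. The clade B median was 0.59 when each gene was given by its most different probe set. Without probe sets ending in _s_at, _x_at or _a_at, 32 genes were left and 2 were over 2-fold higher, because *Serpinb6a* and *Serpinb6c* have no other probe set. The median of the family stayed between 0.11 and 0.31, and that of all genes lay between -0.07 and 0.06. Median centring lowers every difference by 0.10. The median of the receptors and cofactors ran from 0.21 to 0.88 and that of the plasminogen and clotting proteases from 0.06 to 0.40. *Serpinb1a* ran from 1.19 to 2.14 and *Serpini1* from -1.95 to -1.13, and neither left its side of 1.3-fold. No setting took the dimmest probe set of either gene alone, which differed by 0.24 for *Serpinb1a* and 0.06 for *Serpini1*, both within 1.3-fold. Counting a gene by any of its probe sets, the rule of the study, gave 14 higher at 1.3-fold, against 24.6% of all genes. No replicate could be left out, and no paired analysis was possible because each group has 1 array. Dim signal limits 26 of the 39 genes, as their folds depend on the background.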
